A study of Mus musculus with 8 samples.

Results

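The genes described here encode the proteasome, the protease that degrades ubiquitin-tagged proteins, together with its activators, its inhibitor and its assembly chaperones. They are the protein-coding genes whose symbol begins with Psma, Psmb, Psmc, Psmd, Psme, Psmf or Psmg followed by a number, and 49 of the 13388 genes in the deposited table met that rule. By known role the 49 fall into 8 subunits of the 20S alpha ring, 7 constitutive subunits of the 20S beta ring, 3 immunoproteasome subunits, 6 ATPases and 11 other subunits of the 19S cap, 4 genes of the 11S activator family, the activator Psme4, the inhibitor Psmf1, 7 assembly chaperones and Psmc3ip. Psmc3ip, a cofactor of meiotic recombination, matched the symbol rule but is no proteasome subunit, so 48 of the 49 belong to the proteasome.

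RNA was sequenced from sorted bone marrow cells of wild-type mice after 6 h on a stromal feeder line, in 8 libraries. The 4 groups, of 2 libraries each, were common monocyte progenitors (cMoPs) on OP9-DLL1, cMoPs on OP9, Ly6C+ classical monocytes on OP9-DLL1 and Ly6C+ classical monocytes on OP9. OP9 is a mouse bone marrow stromal line, and OP9-DLL1 is OP9 made to display the Notch ligand DLL1; the comparison of the stromas addresses what contact with that ligand changes in each cell type. No agent other than the stroma, no age and no number of animals is given for any group, and the labels do not say whether stromal cells were removed before RNA extraction.

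The proteasome is a barrel, the 20S core, whose outer alpha rings gate entry and whose inner beta rings cut, and it is capped by the 19S regulatory particle, which unfolds and feeds in ubiquitinated substrates. Interferon-induced Psmb8, Psmb9 and Psmb10 can take the place of the catalytic subunits Psmb5, Psmb6 and Psmb7 to form the immunoproteasome, which favours peptides that fit MHC class I molecules, and cells of the blood lineage carry much of it without stimulation. The 11S particle of Psme1 and Psme2 is also interferon-induced, and the chaperones Psmg1 to Psmg4 build the core.

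Recovered depth was 51566715 to 62459962 reads in cMoP libraries and 47316323 to 54282613 reads in monocyte libraries. The 7 measured cMoP markers of a list of 8 (among them Mpo, Elane and Kit; Flt3 is not analysed here) summed to between 14680 and 21960 CPM (reads scaled to library size) in cMoPs, against 162 to 295 CPM in monocytes. The 8 markers of Ly6C+ monocytes summed to between 3148 and 3709 CPM in cMoPs, against 4866 to 6696 CPM in monocytes. Of these, 2 ran the other way: Ly6c2 itself, at 2065 to 2314 CPM in cMoPs and 872 to 1204 CPM in monocytes, and Cx3cr1, at 8.77 to 15.45 CPM in cMoPs and 2.04 to 2.51 CPM in monocytes. The 2 libraries of monocytes on OP9 stood furthest apart of any pair. Of the 49 genes, 34 were higher in replicate 1 and 15 in replicate 2. The median log2 CPM of replicate 1 minus replicate 2 differed by 0.13 over the 49 genes, beside 0.0004 over all genes. Between these libraries 5 of the 49 lay more than 0.5 apart on the log2 CPM scale, against at most 1 gene in the other groups. How many of all genes did so is not given here.

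The promoter sequences of a pair of exchangeable subunits at each of 2 catalytic positions are shown as description only. No expression result given here rests on these sequences. Each line is the stretch of 250 bases before the transcription start in RefSeq annotation on GRCm38.p6, written 5′ to 3′ along the gene, with capitals on the motif that a search found. For Psmb8 (chr17:34197945-34198194, plus strand) the capitals mark a gamma-activated sequence, the site of STAT factors, 97 bases before the start. For Psmb5 (chr14:54617996-54618245, minus strand) they mark an antioxidant response element core, 47 bases before the start. For Psmb9 (chr17:34187331-34187580, minus strand) they mark an inverted NF-Y box, 8 bases before the start. GENCODE M21 places the outer bound of Psmb8 (34197721) and of Psmb9 (34187764) further upstream than these RefSeq starts. The printed stretches of Psmb8 and Psmb9 thus lie wholly inside the GENCODE bounds of the genes. For Psmb6 (chr11:70525107-70525356, plus strand) they mark an antioxidant response element core, 9 bases before the start.
Psmb8 promoter: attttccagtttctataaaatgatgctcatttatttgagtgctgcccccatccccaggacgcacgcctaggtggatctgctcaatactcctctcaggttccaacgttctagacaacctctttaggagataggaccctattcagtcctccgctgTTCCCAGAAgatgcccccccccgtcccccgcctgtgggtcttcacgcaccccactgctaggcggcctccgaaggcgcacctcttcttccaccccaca
Psmb5 promoter: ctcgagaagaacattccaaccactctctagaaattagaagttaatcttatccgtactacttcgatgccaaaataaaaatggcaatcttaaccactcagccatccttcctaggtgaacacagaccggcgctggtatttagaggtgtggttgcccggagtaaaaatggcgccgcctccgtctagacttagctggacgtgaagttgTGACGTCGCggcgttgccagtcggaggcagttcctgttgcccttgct
Psmb9 promoter: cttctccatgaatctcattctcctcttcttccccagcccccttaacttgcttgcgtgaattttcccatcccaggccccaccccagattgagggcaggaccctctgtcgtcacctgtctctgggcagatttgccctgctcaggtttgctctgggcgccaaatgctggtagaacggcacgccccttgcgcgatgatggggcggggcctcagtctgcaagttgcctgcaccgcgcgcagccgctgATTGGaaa
Psmb6 promoter: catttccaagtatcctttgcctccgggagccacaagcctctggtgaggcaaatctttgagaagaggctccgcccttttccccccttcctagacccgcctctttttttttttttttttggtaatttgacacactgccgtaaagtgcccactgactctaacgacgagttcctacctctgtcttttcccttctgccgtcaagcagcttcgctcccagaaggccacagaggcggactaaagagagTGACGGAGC

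Windows running from 250 bases before to 50 bases after the start were found for 41 of the 49 genes and searched on both strands for 4 motifs. The interferon-stimulated response element core GAAANNGAA lay in 7 of the 41 (17.1%), against 9.76% of all 27025 genes with a window. Those 7 were Psmb3, Psmb4, Psmc2, Psmd4, Psmd9, Psme1 and Psmg4. For Psmc2, Psmd9 and Psme1 the window with the match lay wholly inside the GENCODE bounds of the gene. Such windows were not set apart in either share. The gamma-activated sequence TTCNNNGAA lay in 3 of 41 (7.32%, against 9.55% of all), in Psmb8, Psmd2 and Psmg1. The antioxidant response element core TGACNNNGC lay in 6 of 41 (14.6%, against 14.0% of all), and the NF-Y box CCAAT in 14 of 41 (34.1%, against 41.1% of all). Genes with several windows count once in both shares. The window of Psmb10 held none of the 4, and a match or its lack says nothing of whether a factor binds there.

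**Figure D1:**
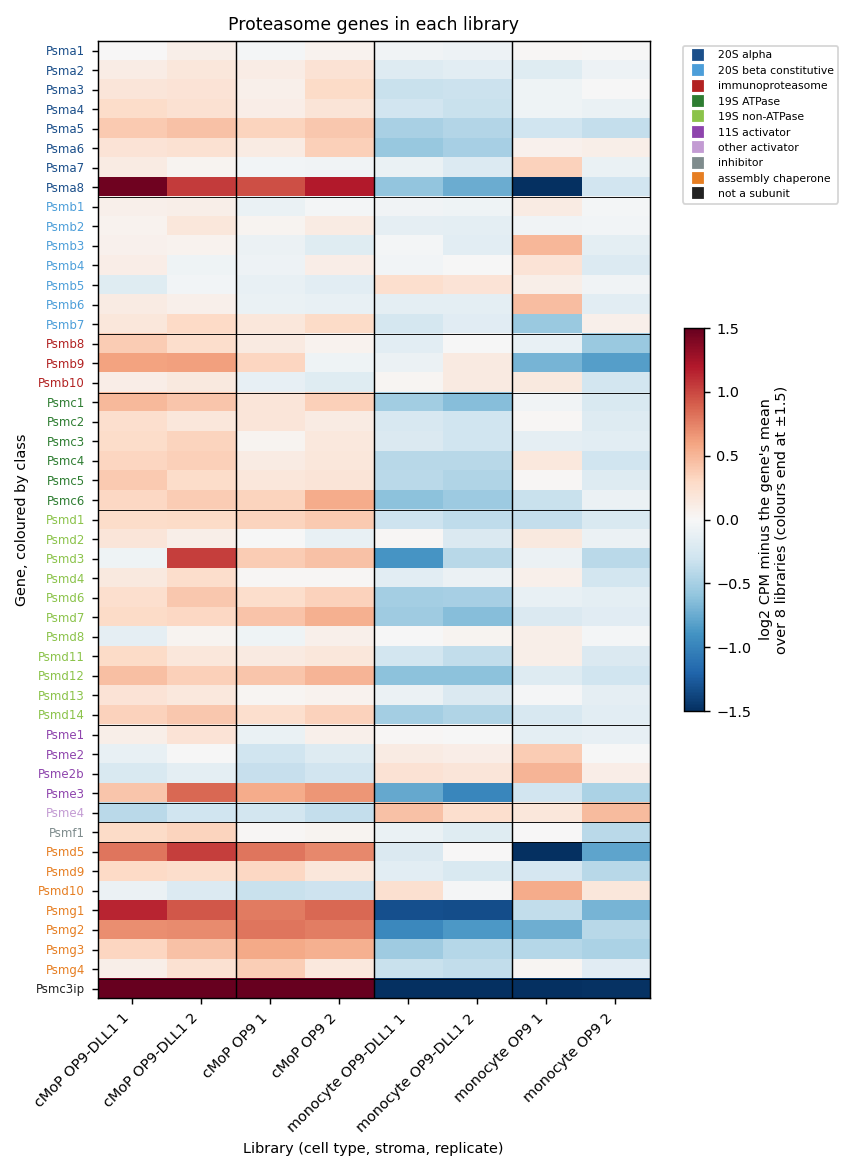
Each row is 1 of the 49 genes, grouped and coloured by class, and each column 1 of the 8 libraries. Colour gives log2 CPM minus the gene's mean over the 8 libraries, and colours end at 1.5 in either direction. Most rows of the 19S cap and the assembly chaperones are red in the 4 cMoP columns and blue in the 4 monocyte columns, whereas rows of the constitutive beta ring are pale.

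Levels within the family ranged widely. All 49 genes passed the filter of 1 CPM in at least 2 libraries, and the lowest was Psma8, a testis-type alpha subunit, with 12 to 369 recovered reads a library. Psma8 stood at 6.49 and 4.89 CPM in cMoPs on OP9-DLL1, 4.63 and 5.39 in cMoPs on OP9, 1.57 and 1.41 in monocytes on OP9-DLL1, and 0.289 and 1.94 in monocytes on OP9. It was higher in every cMoP library than in any monocyte library. Per kilobase of exon, the median level of the constitutive beta ring was 289 CPM in cMoPs on OP9-DLL1, 252 in cMoPs on OP9, 261 in monocytes on OP9-DLL1 and 322 in monocytes on OP9. The median level of the 19S ATPases per kilobase was 242 CPM in cMoPs on OP9-DLL1, 211 in cMoPs on OP9, 139.8 in monocytes on OP9-DLL1 and 171 in monocytes on OP9. The median level of the assembly chaperones per kilobase was 48.1 CPM in cMoPs on OP9-DLL1, 42.4 in cMoPs on OP9, 13.5 in monocytes on OP9-DLL1 and 20.5 in monocytes on OP9. Of these 3 classes, chaperone transcripts had the lowest median in each group. In bulk RNA, fewer cells of a type and less RNA per cell cannot be told apart, which holds for each level given here.

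Genes of the 19S cap and assembly chaperones were more often higher than lower in cMoPs relative to monocytes, on either stroma. On OP9-DLL1, 32 of the 49 genes were higher in cMoPs and 2 lower (limma-trend, Benjamini-Hochberg adjusted p under 0.05), where 28.2% of all 13374 tested genes were higher and 29.2% lower. On OP9, 19 were higher and 4 lower, where 28.8% of all tested genes were higher and 27.7% lower. The median log2 fold change, cMoP over monocyte, was 0.51 for the 49 genes on OP9-DLL1, beside -0.01 for all tested genes, and 0.24 on OP9, beside 0.01. On OP9 the counts were 14 and 2 without cMoP OP9 replicate 2, 28 and 4 without monocyte OP9 replicate 1, and 19 and 8 without monocyte OP9 replicate 2. Those fits called 41.1%, 50.9% and 58.4% of all tested genes in that order. The 2 comparisons use different libraries. The 19 genes higher on OP9 were all among the 32 higher on OP9-DLL1 (100% and 59.4% of the lists), and of the lower genes Psme4 was in both.

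In either direction, 69.4% of the 49 genes passed on OP9-DLL1, against 57.4% of all tested genes, and 46.9% on OP9, against 56.5% of all. The share of these genes that changed was thus above the background on 1 stroma and below it on the other, while higher calls outnumbered lower calls on both. Summed markers of the cell cycle were 2105 to 2404 CPM in cMoPs and 525 to 1121 CPM in monocytes. Mki67 alone among them overlapped, at 109.8 to 137.3 CPM in cMoPs and 72.95 to 165.8 CPM in monocytes. The part of the cell-cycle markers in these differences was not tested.

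**Figure D2:**
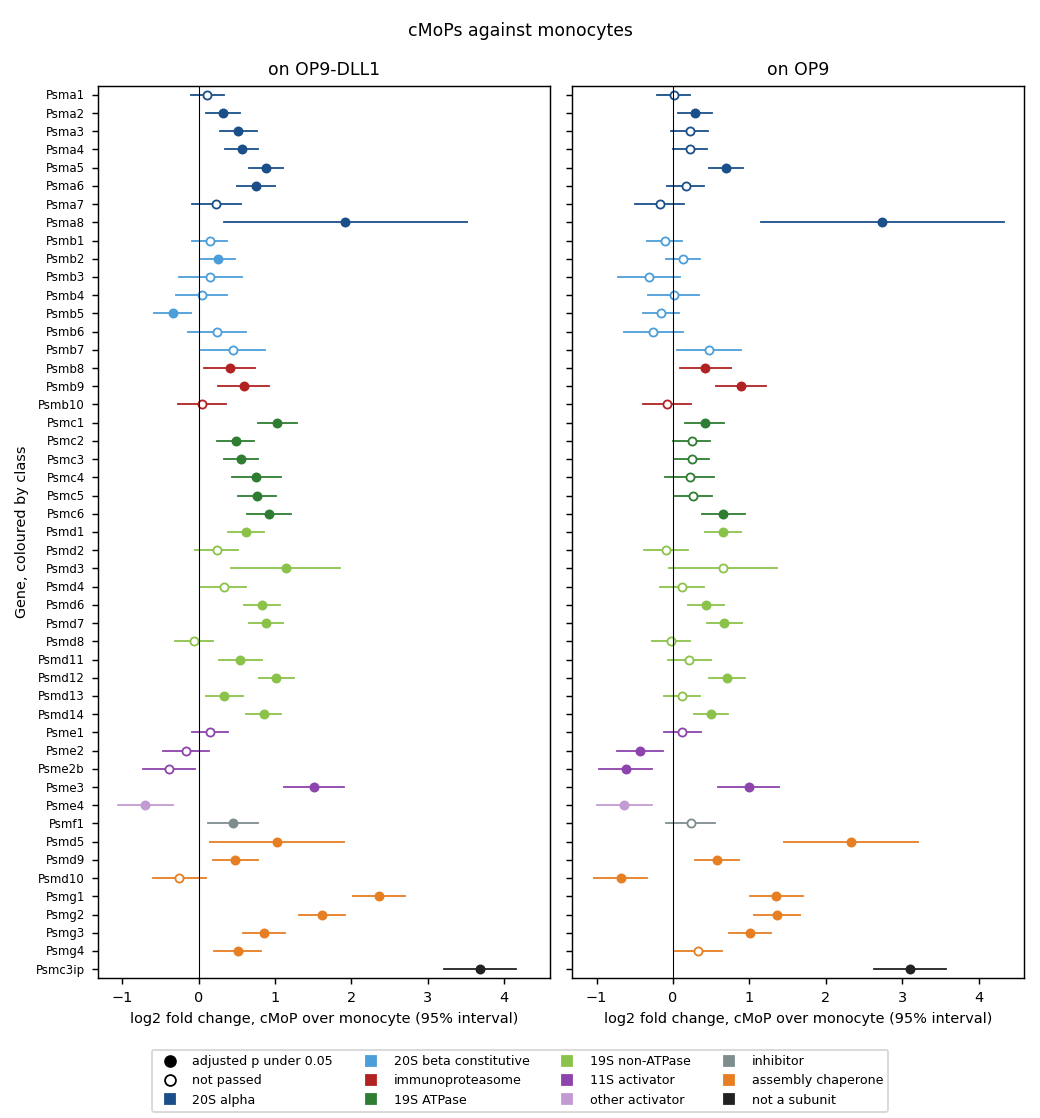
Log2 fold change of cMoP over monocyte for each of the 49 genes on OP9-DLL1 (left) and on OP9 (right), with 95% intervals from limma-trend; filled points have an adjusted p under 0.05. On OP9-DLL1 the 6 ATPases are filled to the right of 0, the constitutive beta subunits run from -0.34 (Psmb5, filled) to 0.45 (Psmb7), and Psme4 lies to the left in both panels.

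Among the classes with more than 1 gene, the assembly chaperones had the highest median difference on both stromas. On OP9-DLL1, 6 of 7 were higher in cMoPs (median log2 fold change 0.86), and on OP9 5 were higher and 1 lower (median 1.01). Over all tested genes, 28.2% were higher and 29.2% lower on OP9-DLL1, and 28.8% higher and 27.7% lower on OP9. Psmg1 (chr16:95979933-95990960), which pairs with Psmg2 to seed the alpha ring, stood at 87.7 and 75.2 CPM in cMoPs on OP9-DLL1, 67.9 and 72.0 in cMoPs on OP9, 15.9 and 15.7 in monocytes on OP9-DLL1, and 30.7 and 24.4 in monocytes on OP9. All 4 cMoP libraries lay above all 4 monocyte libraries. Its log2 fold change, cMoP over monocyte, was 2.36 ± 0.15 (SE) on OP9-DLL1 (limma-trend adjusted p = 2.52e-06) and 1.35 ± 0.15 on OP9 (adjusted p = 8.21e-05).

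Psmg2 averaged 122 ± 0.74 CPM in cMoPs on OP9-DLL1 and 39.9 ± 1.92 in monocytes on OP9-DLL1 (SD, n = 2 each). On OP9 it averaged 129.8 ± 2.45 CPM in cMoPs and 50.8 ± 7.95 in monocytes. Psmg3, of the later Psmg3 and Psmg4 pair, averaged 70.9 ± 4.08 CPM in cMoPs and 39.1 ± 2.11 in monocytes on OP9-DLL1. Both were higher in cMoPs on both stromas: the log2 fold change of Psmg2 was 1.61 ± 0.13 on OP9-DLL1 and 1.36 ± 0.13 on OP9, and that of Psmg3 0.86 ± 0.12 and 1.01 ± 0.12, with limma-trend adjusted p at most 0.000275.

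The chaperones of the 19S base did not share 1 direction. Psmd9, whose exons overlap those of the noncoding Gm26745 on the opposite strand by 1849 bases, was higher in cMoPs by 0.48 ± 0.13 on the log2 scale on OP9-DLL1 and by 0.57 ± 0.13 on OP9, and its call on OP9-DLL1 was lost without cMoP replicate 1 or monocyte replicate 2 (adjusted p up to 0.0646). Psmd5 was at 179.8 and 213 CPM in cMoPs on OP9-DLL1, 179.5 and 169.7 in cMoPs on OP9, 89.1 and 104 in monocytes on OP9-DLL1, and 20.1 and 59.7 in monocytes on OP9. The monocyte libraries on OP9 were the lowest and lay furthest apart. Psmd5 had a log2 fold change, cMoP over monocyte, of 1.02 ± 0.39 on OP9-DLL1 (limma-trend adjusted p = 0.0474) and 2.33 ± 0.39 on OP9 (adjusted p = 0.000852). The call on OP9-DLL1 was lost without any 1 of its 4 libraries (adjusted p up to 0.184). Psmd10, also known as gankyrin and named here after its value was seen, was the 1 lower chaperone on OP9, with 61.9 and 62.8 CPM in cMoPs and 114 and 87.7 CPM in monocytes (log2 fold change -0.68 ± 0.15, adjusted p = 0.00461).

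All 6 ATPases of the 19S base, the motors that unfold substrates, were higher in cMoPs on OP9-DLL1, with a median log2 fold change of 0.76 and a range of 0.48 to 1.03. On OP9, Psmc1 and Psmc6 passed and the other 4 had fold changes of 0.22 to 0.27. Higher calls made up 28.2% of all tested genes on OP9-DLL1 and 28.8% on OP9. Psmc1 stood at 589 and 563 CPM in cMoPs on OP9-DLL1, 479 and 541 in cMoPs on OP9, 293 and 271 in monocytes on OP9-DLL1, and 405 and 361 in monocytes on OP9. No cMoP library overlapped a monocyte library. For Psmc1, the log2 fold change, cMoP over monocyte, was 1.03 ± 0.11 on OP9-DLL1 (limma-trend adjusted p = 6.2e-05) and 0.41 ± 0.11 on OP9 (adjusted p = 0.0122). The call on OP9 was lost without cMoP OP9 replicate 2 (adjusted p = 0.114).

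Psmc6 had a log2 fold change, cMoP over monocyte, of 0.92 ± 0.13 on OP9-DLL1 and 0.66 ± 0.13 on OP9. On OP9-DLL1 Psmc5 differed by 0.77 ± 0.11 and Psmc3 by 0.56 ± 0.10. For all 6 ATPases, both cMoP libraries lay above both monocyte libraries on OP9-DLL1. How often that held over all tested genes is not given here. Psmc3 overlaps an exon of Slc39a13 on the opposite strand by 215 bases, and since the library kit does not mark strand its reads cannot be fully told apart from that gene.

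Of the 11 other 19S subunits, 8 were higher in cMoPs on OP9-DLL1 (median log2 fold change 0.62) and 5 on OP9 (median 0.44). None of these 11 was lower. The shares of all tested genes were 28.2% and 28.8% higher, and 29.2% and 27.7% lower, on OP9-DLL1 and OP9. Sem1, a small lid subunit outside the Psm symbols, was lower in cMoPs, at 405 and 402 CPM in cMoPs on OP9-DLL1, 392 and 394 in cMoPs on OP9, 664 and 635 in monocytes on OP9-DLL1, and 696 and 597 in monocytes on OP9. The cell types did not overlap, and the log2 fold change was -0.69 ± 0.11 on OP9-DLL1 and -0.71 ± 0.11 on OP9 (limma-trend adjusted p = 0.000532 and 0.000459); Sem1 is named after its values were seen. Psmd12, a subunit of the lid, stood at 404 and 376 CPM in cMoPs on OP9-DLL1, 392 and 418 in cMoPs on OP9, 193 and 192 in monocytes on OP9-DLL1, and 257 and 239.7 in monocytes on OP9. Psmd14, the deubiquitinase that cuts ubiquitin from substrates as they enter, stood at 491 and 512 CPM in cMoPs on OP9-DLL1, 460.2 and 493 in cMoPs on OP9, 272 and 284 in monocytes on OP9-DLL1, and 328 and 348 in monocytes on OP9. For both, every cMoP library was above every monocyte library.

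The log2 fold change, cMoP over monocyte, of Psmd12 was 1.02 ± 0.10 on OP9-DLL1 and 0.71 ± 0.10 on OP9, and that of Psmd14 was 0.85 ± 0.10 and 0.50 ± 0.10. Psmd7, which pairs with Psmd14, differed by 0.88 ± 0.10 and 0.67 ± 0.10, and limma-trend adjusted p was at most 0.00259 for these 3 lid genes. The lid subunit Psmd6 differed by 0.83 ± 0.10 on OP9-DLL1 and the scaffold Psmd1 by 0.66 ± 0.10 on OP9. By contrast Psmd8, another lid subunit, had log2 fold changes of -0.06 (95% interval -0.31 to 0.19) and -0.03 (-0.28 to 0.22), and Psmd2, the other scaffold, of 0.23 (-0.05 to 0.52) and -0.09 (-0.38 to 0.20). Psmd8 and Psmd2 are named after their values were seen, and no difference between genes was tested.

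Of the 8 alpha-ring genes, whose products shape the gate of the core, 6 were higher in cMoPs on OP9-DLL1 (median log2 fold change 0.54). On OP9, 3 were higher (median 0.22), and none was lower on either stroma. Among all tested genes 28.2% and 28.8% were higher, and 29.2% and 27.7% lower, on OP9-DLL1 and OP9. Psma5 stood at 705 and 728 CPM in cMoPs on OP9-DLL1, 673 and 707 in cMoPs on OP9, 383 and 395 in monocytes on OP9-DLL1, and 436 and 418 in monocytes on OP9, with no overlap between cell types. The cMoP over monocyte log2 fold change was 0.88 ± 0.10 on OP9-DLL1 (limma-trend adjusted p = 6.14e-05) and 0.69 ± 0.10 on OP9 (adjusted p = 0.000297). On OP9-DLL1, Psma6 differed by 0.75 ± 0.11, Psma4 by 0.56 ± 0.10 and Psma3 by 0.52 ± 0.11. On OP9, Psma2 differed by 0.29 ± 0.10 and Psma8 by 2.74 ± 0.71, and both lost the call without cMoP OP9 replicate 2, Psma2 also without cMoP OP9 replicate 1 (adjusted p up to 0.203 for Psma2 and 0.054 for Psma8).

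Few genes of the constitutive beta ring, which holds the cutting sites, passed between the cell types. On OP9-DLL1, 1 of the 7 was higher in cMoPs (Psmb2) and 1 lower (Psmb5), where 28.2% of all tested genes were higher and 29.2% lower. The median log2 fold change was 0.15. On OP9 none of the 7 passed, where 56.5% of all tested genes did, with fold changes from -0.31 (Psmb3) to 0.47 (Psmb7). Psmb7 came near the threshold, with limma-trend adjusted p of 0.0605 on OP9-DLL1 and 0.0525 on OP9. In the authors' deposited table it passed on both, with adjusted p of 0.00797 and 0.0416. On OP9 it also passed with the filter at 5 CPM, median centring, log2(CPM + 1), voom and the replicate block. On OP9-DLL1 Psmb7 passed with median centring, voom, the replicate block and when only the groups compared were fitted. Psmb6 also passed as higher in that last fit. Psmb2 did not pass on OP9-DLL1 with log2(CPM + 1) or without the mean-variance trend. Psmb2 averaged 769 ± 42.8 CPM in cMoPs and 643 ± 3.71 in monocytes on OP9-DLL1 (log2 fold change 0.26 ± 0.10, limma-trend adjusted p = 0.0479), a call lost without any 1 of the 4 libraries (adjusted p up to 0.262).

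Psmb5, the chymotrypsin-like site of the constitutive core (chr14:54614119-54618022), stood at 324 and 359 CPM in cMoPs on OP9-DLL1, 341 and 329 in cMoPs on OP9, 437 and 426 in monocytes on OP9-DLL1, and 392 and 356 in monocytes on OP9. Psmb8, which takes its place in the immunoproteasome (chr17:34197721-34201454), stood at 439 and 404 CPM in cMoPs on OP9-DLL1, 371 and 348 in cMoPs on OP9, 301 and 335 in monocytes on OP9-DLL1, and 313 and 229.5 in monocytes on OP9. Exons of Psmb8 overlap the antisense gene Gm20496 on the opposite strand by 498 bases, so reads of that gene cannot be told apart. Psmb8 was higher and Psmb5 lower in both cMoP libraries than in both monocyte libraries on each stroma. The log2 fold change of Psmb8, cMoP over monocyte, was 0.41 ± 0.15 on OP9-DLL1 (limma-trend adjusted p = 0.041) and 0.42 ± 0.15 on OP9 (adjusted p = 0.0356). That of Psmb5 was -0.34 ± 0.11 on OP9-DLL1 (adjusted p = 0.0216) and -0.16 ± 0.11 on OP9 (adjusted p = 0.237).

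The calls on this pair were not firm. Psmb8 lost its call on OP9-DLL1 without any 1 of the 4 libraries (adjusted p up to 0.201), and on OP9 without either cMoP library or without monocyte OP9 replicate 2 (up to 0.16). Psmb5 lost its call on OP9-DLL1 without cMoP replicate 1 or either monocyte library (adjusted p up to 0.156), and also when libraries were centred on their medians. Without the mean-variance trend, Psmb5 lost its call on OP9-DLL1 and Psmb8 its calls on both stromas.

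Psmb6, the caspase-like site of the constitutive core (chr11:70525367-70527858), stood at 859 and 831 CPM in cMoPs on OP9-DLL1, 737 and 730.5 in cMoPs on OP9, 716 and 714 in monocytes on OP9-DLL1, and 1086 and 709 in monocytes on OP9. Psmb9, its immunoproteasome counterpart (chr17:34181987-34187764), stood at 174 and 175 CPM in cMoPs on OP9-DLL1, 142 and 109.5 in cMoPs on OP9, 108 and 125 in monocytes on OP9-DLL1, and 70.2 and 64.6 in monocytes on OP9. Every cMoP library exceeded every monocyte library of the same stroma for Psmb9, and cMoPs on OP9 overlapped monocytes on OP9-DLL1. Its log2 fold change, cMoP over monocyte, was 0.59 ± 0.15 on OP9-DLL1 (limma-trend adjusted p = 0.00745) and 0.89 ± 0.15 on OP9 (adjusted p = 0.000808). The call on OP9-DLL1 was lost without monocyte OP9-DLL1 replicate 1 (adjusted p = 0.0664). Psmb9 and Tap1, the neighbouring gene of the class I peptide transporter, share 212 exon bases on opposite strands, and Tap1 had a log2 fold change of 0.36 ± 0.18 on OP9-DLL1 and 0.38 ± 0.18 on OP9 (adjusted p = 0.117 and 0.102).

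Psmb7, the trypsin-like site (chr2:38588036-38644087), stood at 127 and 138 CPM in cMoPs on OP9-DLL1, 127 and 137 in cMoPs on OP9, 93.9 and 99.8 in monocytes on OP9-DLL1, and 76.5 and 118 in monocytes on OP9. It overlaps exons of Nek6 on the opposite strand by 405 bases. Psmb10, its counterpart (chr8:105935735-105938444), stood at 315 and 325 CPM in cMoPs on OP9-DLL1, 269.5 and 259.8 in cMoPs on OP9, 301 and 323 in monocytes on OP9-DLL1, and 324 and 243 in monocytes on OP9. Psmb10 overlapped between the cell types on both stromas. Its log2 fold change, cMoP over monocyte, was 0.04 (95% interval -0.28 to 0.35) on OP9-DLL1 and -0.08 (-0.40 to 0.23) on OP9.

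**Figure D3:**
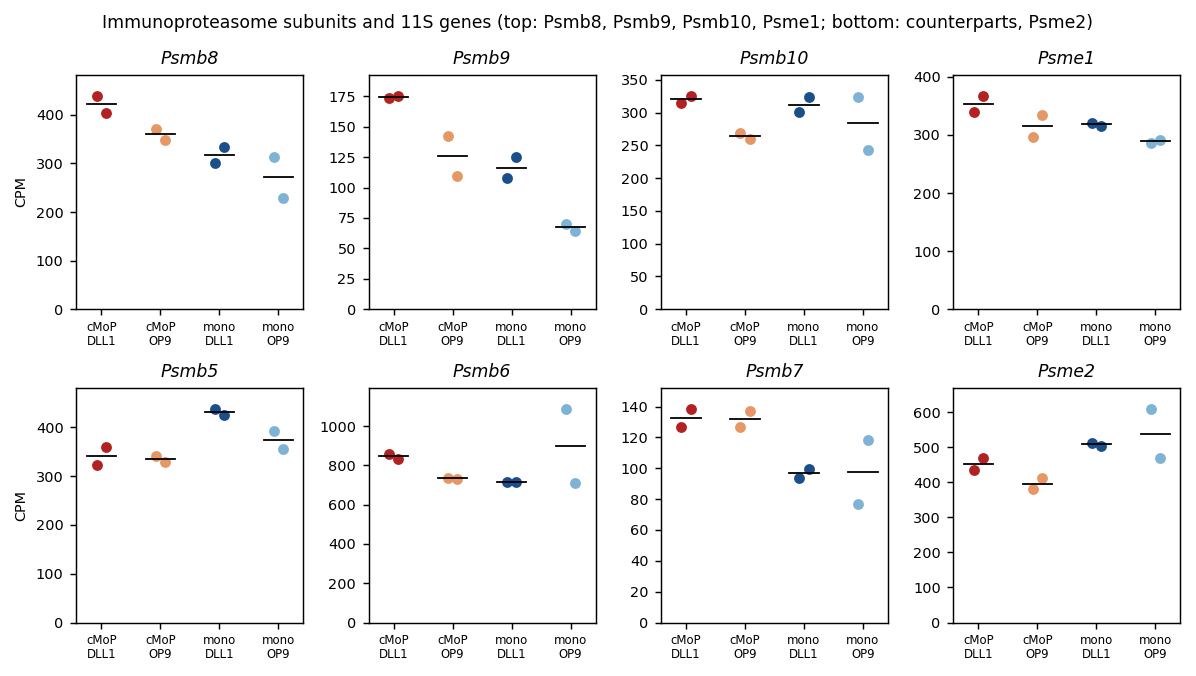
CPM of 8 genes in each group, with 1 point a library and a line at the mean of the 2 libraries; the top row has Psmb8, Psmb9, Psmb10 and Psme1 and the bottom row Psmb5, Psmb6, Psmb7 and Psme2. Axes start at 0. Psmb9 is lowest in monocytes on OP9 at 70.2 and 64.6 CPM, and 1 of the OP9 monocyte libraries stands apart for Psmb6 at 1086 CPM.

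Relative to its constitutive counterpart within a library, which does not depend on how libraries were scaled, Psmb8 stood higher in cMoPs. The log2 difference of Psmb8 minus Psmb5 was 0.44 and 0.17 in cMoPs on OP9-DLL1, 0.12 and 0.08 in cMoPs on OP9, -0.54 and -0.35 in monocytes on OP9-DLL1, and -0.33 and -0.63 in monocytes on OP9. That of Psmb9 minus Psmb6 was -2.31 and -2.24 in cMoPs on OP9-DLL1, -2.37 and -2.74 in cMoPs on OP9, -2.73 and -2.51 in monocytes on OP9-DLL1, and -3.95 and -3.46 in monocytes on OP9. For both pairs the cMoP values lay above the monocyte values on each stroma.

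The third pair went the other way on OP9-DLL1. Psmb10 minus Psmb7 was 1.31 and 1.23 in cMoPs on OP9-DLL1, 1.09 and 0.92 in cMoPs on OP9, 1.68 and 1.70 in monocytes on OP9-DLL1, and 2.08 and 1.04 in monocytes on OP9. On OP9 the cMoP value of 1.09 lay inside the monocyte range. No test was fitted to these within-library values, and only differences between groups can be read, since gene lengths are not removed.

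**Figure D4:**
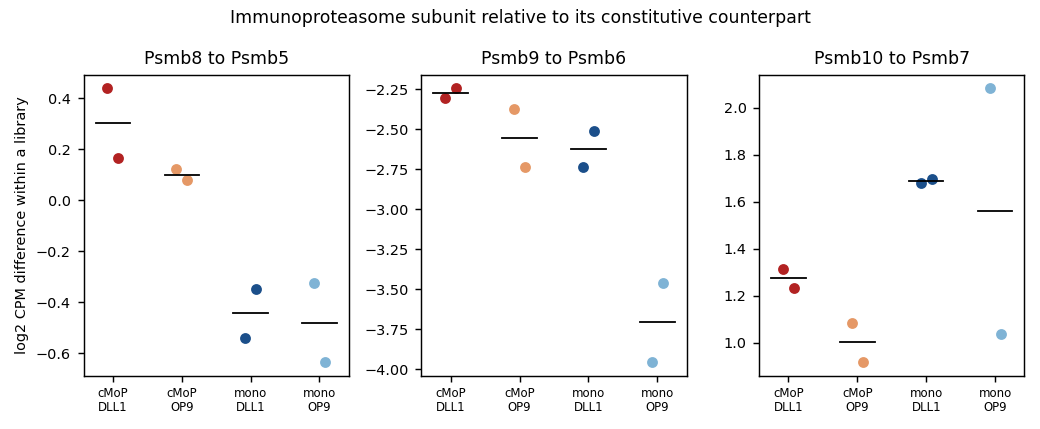
Difference in log2 CPM within a library between an immunoproteasome subunit and the constitutive subunit it replaces, with 1 point a library and a line at the mean of 2. Psmb8 to Psmb5 is higher in each of the 4 cMoP libraries than in any monocyte library, and Psmb9 to Psmb6 is lowest in monocytes on OP9.

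Among activators, Psme1 and Psme2, which form the interferon-induced 11S cap, differed little or were lower in cMoPs. Psme1 (chr14:55578123-55581529) stood at 339 and 367 CPM in cMoPs on OP9-DLL1, 297 and 335 in cMoPs on OP9, 321 and 316 in monocytes on OP9-DLL1, and 287 and 292 in monocytes on OP9. Psme2 (chr14:55587441-55591113) stood at 434 and 469 CPM in cMoPs on OP9-DLL1, 379.9 and 411 in cMoPs on OP9, 512 and 505 in monocytes on OP9-DLL1, and 609 and 469 in monocytes on OP9. Psme1 was higher and Psme2 lower in both cMoP libraries than in both monocyte libraries on each stroma.

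The log2 fold change of Psme1, cMoP over monocyte, was 0.15 (95% interval -0.09 to 0.39) on OP9-DLL1 and 0.12 (-0.12 to 0.36) on OP9. Psme2 differed by -0.17 ± 0.13 on OP9-DLL1 (limma-trend adjusted p = 0.294) and fell by 0.43 ± 0.13 on OP9 (adjusted p = 0.0204). The call on OP9 was lost without either cMoP library (adjusted p up to 0.123). Psme2b, a near-identical copy with which Psme2 may share reads, had log2 fold changes of -0.39 ± 0.15 (adjusted p = 0.0539) and -0.62 ± 0.15 (adjusted p = 0.00724). Psme1 minus Psme2 within a library was -0.36 and -0.35 in cMoPs on OP9-DLL1, -0.36 and -0.30 in cMoPs on OP9, -0.67 and -0.67 in monocytes on OP9-DLL1, and -1.08 and -0.68 in monocytes on OP9.

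Psme3 and Psme4, activators found in the nucleus, differed in opposite directions. Psme3 stood at 45.1 and 61.2 CPM in cMoPs on OP9-DLL1, 49.7 and 53.1 in cMoPs on OP9, 19.8 and 17.2 in monocytes on OP9-DLL1, and 27.7 and 24.2 in monocytes on OP9. Psme4 stood at 18.2 and 19.5 CPM in cMoPs on OP9-DLL1, 19.8 and 18.8 in cMoPs on OP9, 32.6 and 28.6 in monocytes on OP9-DLL1, and 27.0 and 33.2 in monocytes on OP9. Neither gene overlapped between the cell types. The log2 fold change of Psme3, cMoP over monocyte, was 1.51 ± 0.18 on OP9-DLL1 (limma-trend adjusted p = 8.76e-05) and 0.99 ± 0.18 on OP9 (adjusted p = 0.00121). That of Psme4 was -0.70 ± 0.16 on OP9-DLL1 (adjusted p = 0.00451) and -0.64 ± 0.16 on OP9 (adjusted p = 0.00767, and 0.0537 without cMoP OP9 replicate 2).

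Psmf1, which binds the core and inhibits it in vitro, averaged 107 ± 2.94 CPM in cMoPs and 78.3 ± 3.33 in monocytes on OP9-DLL1 (SD, n = 2 each; log2 fold change 0.45 ± 0.15, limma-trend adjusted p = 0.0237). That call was lost without any 1 of the 4 libraries (adjusted p up to 0.114), and on OP9 the log2 fold change was 0.23 (95% interval -0.10 to 0.56). Psmc3ip, which is no subunit, had the largest fold change of the 49 genes on both stromas. It stood at 81.9 and 89.2 CPM in cMoPs on OP9-DLL1, 74.6 and 68.1 in cMoPs on OP9, 5.27 and 8.38 in monocytes on OP9-DLL1, and 7.95 and 8.62 in monocytes on OP9. Psmc3ip had a log2 fold change, cMoP over monocyte, of 3.69 ± 0.21 on OP9-DLL1 (adjusted p = 1.27e-06) and 3.11 ± 0.21 on OP9 (adjusted p = 4.56e-06), and its exons overlap those of Mlx on the opposite strand by 385 bases.

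Contact with OP9-DLL1 was tested next. In monocytes, 1 of the 49 genes was higher on OP9-DLL1 than on OP9 and 2 were lower, where 3.36% of all tested genes were higher and 3.03% lower. In total 6.12% of the 49 genes passed, against 6.39% of all tested genes. Other settings set the 2 shares further apart: 12.2% of the 49 against 7.39% of all genes with voom on recovered reads, 12.2% against 7.91% with the replicate block and 14.3% against 6.77% with libraries centred on their medians. Without the mean-variance trend the shares were 0% and 1.85%. The median log2 fold change, OP9-DLL1 over OP9, was -0.13 for the 49 genes and 0.01 for all tested genes, with 11 values above 0 and 38 below. At an unadjusted p under 0.05 by limma-trend, 2 were higher and 14 lower. The shares of all tested genes at that looser threshold are not given here. These 2 counts therefore have no background and cannot be set against the shares above.

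The gene that rose in monocytes was Psmb9, at 108 and 125 CPM on OP9-DLL1 against 70.2 and 64.6 CPM on OP9. Both OP9-DLL1 libraries lay above both OP9 libraries. The log2 fold change was 0.79 ± 0.15 (limma-trend adjusted p = 0.0167). Psmb8 and Psmb10 had 0.25 (95% interval -0.09 to 0.58) and 0.15 (-0.16 to 0.47), and their groups overlapped. Tap1, which shares exon bases with Psmb9, had 53.4 and 58.0 CPM on OP9-DLL1 and 47.5 and 37.5 CPM on OP9 (log2 fold change 0.40 ± 0.18, adjusted p = 0.239). The difference of Psmb9 minus Psmb6 within a library was 1.08 higher on OP9-DLL1 on average, with no overlap, while that of Psmb8 minus Psmb5 differed by 0.04 and overlapped.

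The genes that fell in monocytes were Psma6 and Psmg1. Psma6 stood at 368 and 388 CPM on OP9-DLL1 and 573 and 580.2 CPM on OP9 (log2 fold change -0.61 ± 0.11, limma-trend adjusted p = 0.0135). Psmg1 stood at 15.9 and 15.7 CPM on OP9-DLL1 and 30.7 and 24.4 CPM on OP9 (log2 fold change -0.79 ± 0.15, adjusted p = 0.0187). In both genes each OP9-DLL1 library was below each OP9 library. All 3 calls were lost without either OP9-DLL1 monocyte library, with adjusted p up to 0.0977 for Psma6, 0.146 for Psmb9 and 0.126 for Psmg1. They were also lost without the mean-variance trend and when only the monocyte libraries were fitted. With libraries centred on their medians, which moved the median of all genes by -0.08 and the share of higher calls among all called genes to 39.8%, against 52.6%, 1 of the 49 was higher and 6 were lower. The counts were 4 higher and 5 lower (18.4%) without monocyte OP9 replicate 1, where 8.44% of all tested genes passed, and 3 and 12 (30.6%) without replicate 2, where 18.6% of all did.

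No further gene passed in monocytes, though Psmc1 and Psmd7 passed as lower and Psmd5 as higher with the filter at 5 CPM, with log2(CPM + 1), with voom and with the replicate block. All 6 ATPases had negative fold changes (median -0.34), Psmc1 at -0.44 ± 0.11 (limma-trend adjusted p = 0.0533) and Psmc6 at -0.36 ± 0.13 (adjusted p = 0.129). All 11 other 19S subunits were also below 0 (median -0.26). Among them Psmd3 had -0.41 ± 0.32 and Psmd7 -0.39 ± 0.10 (limma-trend adjusted p = 0.511 and 0.0521). Nearest to 0 were Psmd8 at -0.02 and Psmd4 at -0.03, with overlapping groups. The share of all tested genes below 0 is not given here. The median of the 49 genes was -0.10 without monocyte OP9 replicate 1 and -0.24 without replicate 2. In the constitutive beta ring Psmb6 had -0.30 ± 0.17 and Psmb3 -0.27 ± 0.18, and for both the groups overlapped, with OP9 replicate 1 the highest library. Psme3 had -0.49 ± 0.18, Psme1 0.14 ± 0.11 and Psmf1 0.06 ± 0.15 (adjusted p = 0.139, 0.506 and 0.87). Psmd5 had a log2 fold change of 1.48 ± 0.39 (adjusted p = 0.0572), at 89.1 and 104 CPM on OP9-DLL1 and 20.1 and 59.7 CPM on OP9. In the authors' deposited table Psmd5 passed with an adjusted p of 0.0268 and Psmg1 did not (0.053), so that 2 of the 49 were higher there and 1 lower.

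The monocyte libraries differed in other measures too. Summed stromal markers (5 of 13 measured) were 4.24 and 16.7 CPM on OP9-DLL1 and 18.2 and 21.0 CPM on OP9, against 0.582 to 2.36 CPM in cMoPs. Of the 5, Pdgfrb ran the other way in monocytes, at 2.905 and 4.241 CPM on OP9-DLL1 and 0.0346 and 0.214 CPM on OP9. Summed cell-cycle markers were 885 and 928 CPM on OP9-DLL1, and 525 and 1121 CPM on OP9. The OP9 library with the lower cell-cycle sum, replicate 1, was the one with the higher Psmb3 and Psmb6. The part of these measures in the proteasome results was not tested.

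**Figure D5:**
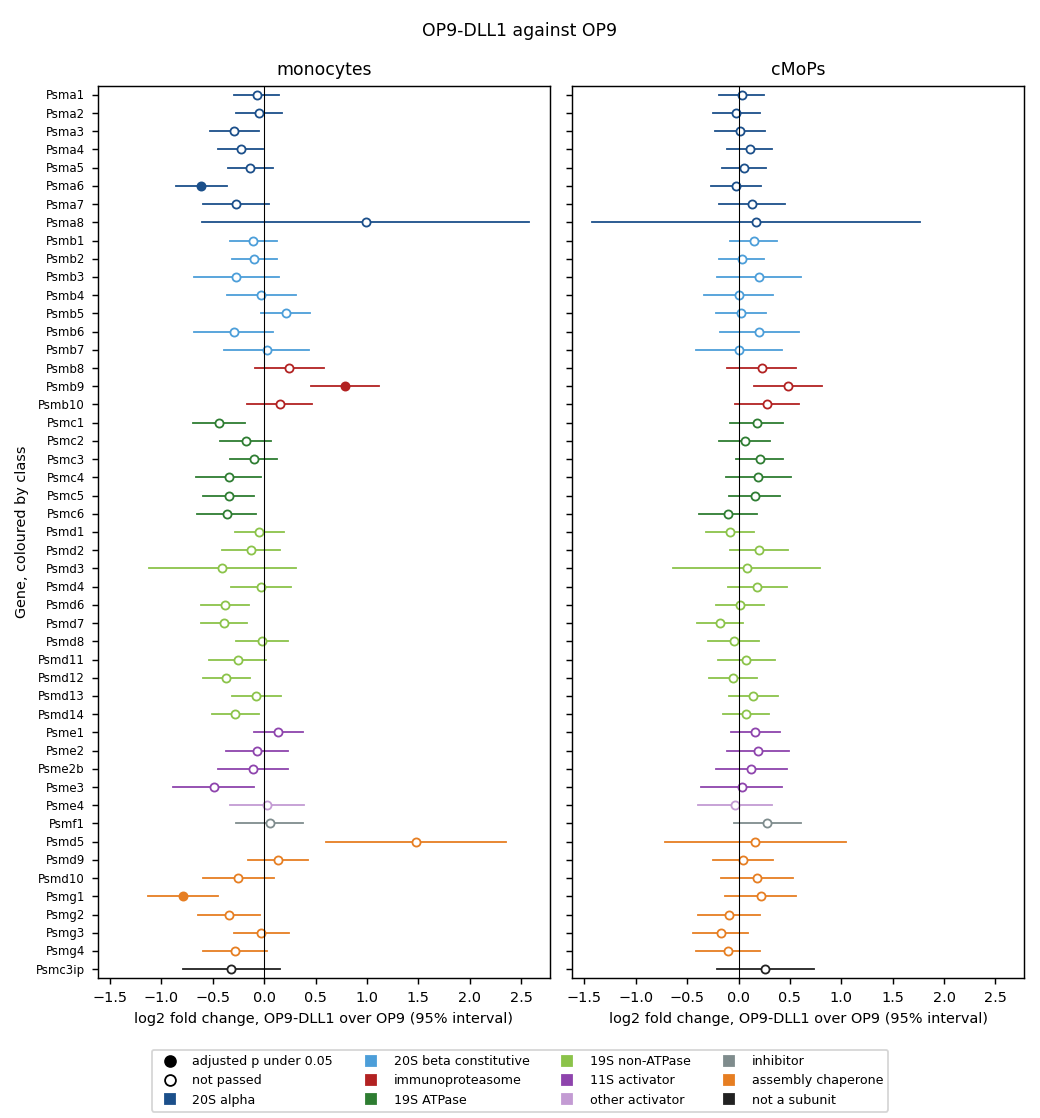
Log2 fold change of OP9-DLL1 over OP9 for the 49 genes in monocytes (left) and cMoPs (right), with 95% intervals from limma-trend; filled points have an adjusted p under 0.05. In monocytes 3 points are filled, Psmb9 to the right of 0 and Psma6 and Psmg1 to the left, and in cMoPs none is.

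In cMoPs, 0 of the 49 genes passed in either direction between OP9-DLL1 and OP9 by limma-trend, where 0.464% of all tested genes were higher and 0.307% lower, 0.77% in all. With voom on recovered reads the count was also 0. At an unadjusted p under 0.05 it was 1 higher and 0 lower, with no share of all tested genes given at that threshold. The median log2 fold change was 0.08 for the 49 genes and 0.01 for all tested genes, and single values ran from -0.18 (Psmd7) to 0.48 (Psmb9). Psmb9, at 174 and 175 CPM on OP9-DLL1 and 142 and 109.5 CPM on OP9, had the lowest p (log2 fold change 0.48 ± 0.15, limma-trend adjusted p = 0.267). Its libraries did not overlap. Psmb10 had 0.28 ± 0.14 and Psmb8 0.23 ± 0.15, so all 3 immunoproteasome genes were above 0 without passing.

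Outside the immunoproteasome no value in cMoPs was above 0.28. The highest values were 0.17 ± 0.71 for Psma8 and 0.13 ± 0.14 for Psma7 in the alpha ring, and 0.20 ± 0.17 for Psmb6 and 0.20 ± 0.18 for Psmb3 in the beta ring. In the 19S cap the highest were 0.21 ± 0.10 for Psmc3, 0.19 ± 0.14 for Psmc4, 0.20 ± 0.13 for Psmd2 and 0.18 ± 0.13 for Psmd4. Psme2 had 0.19 ± 0.13, Psme1 0.16 ± 0.11, Psmf1 0.28 ± 0.15 and the chaperones Psmg1 and Psmd10 0.22 ± 0.15 and 0.18 ± 0.15. The interval of Psma8 reached from -1.42 to 1.76, so a sizeable change of that gene was not detectable.

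The difference between the OP9-DLL1 responses, cMoPs minus monocytes, gave 0 calls among the 49 genes by limma-trend, where 0.0299% of all tested genes were higher and 0.0224% lower, 0.0523% in all. The count was also 0 with voom. At an unadjusted p under 0.05 it was 8 higher and 1 lower, again with no share of all tested genes given at that threshold. The median difference on the log2 scale was 0.24 for the 49 genes and -0.01 for all tested genes. It is the same quantity as the cMoP over monocyte fold change on OP9-DLL1 minus that on OP9, so the larger counts on OP9-DLL1 given above are not shown to differ from those on OP9 for any single gene. The largest differences were 1.01 ± 0.22 for Psmg1 (limma-trend adjusted p = 0.184) and -1.31 ± 0.55 for Psmd5 (adjusted p = 0.481). Psmc1 had 0.62 ± 0.16, Psma6 0.59 ± 0.15, Psmc4 0.54 ± 0.20 and Psme3 0.52 ± 0.25, with adjusted p from 0.259 to 0.539. Without monocyte OP9 replicate 2, 10 of the 49 genes were higher and 2 lower (24.5%), and in the same fit calls among all tested genes numbered 1124 (8.4%), against 7 with all libraries.

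Genes that work with the proteasome under other names included both higher and lower calls between the cell types. Of 10 measured genes for Sem1, proteins that bind the 19S cap and assembly factors, 4 were higher and 2 lower in cMoPs on OP9-DLL1, and 3 higher and 3 lower on OP9. Both counts come to 60% of the list, beside 57.4% of all tested genes on OP9-DLL1 and 56.5% on OP9. The assembly factor Pomp, named after its values were seen, was lower on OP9 (log2 fold change -0.48 ± 0.14, limma-trend adjusted p = 0.0179), a call lost without cMoP OP9 replicate 1 (0.132). Uchl5, a deubiquitinase bound to the cap, stood at 419 and 421 CPM in cMoPs on OP9-DLL1, 389.6 and 426 in cMoPs on OP9, 104 and 117 in monocytes on OP9-DLL1, and 119 and 149 in monocytes on OP9. Uchl5 had a log2 fold change, cMoP over monocyte, of 1.93 ± 0.13 on OP9-DLL1 (limma-trend adjusted p = 3.66e-06) and 1.61 ± 0.13 on OP9 (adjusted p = 1.35e-05). Usp14, the other deubiquitinase of the cap, differed by 1.60 ± 0.16 on OP9-DLL1 and 1.44 ± 0.16 on OP9, and the thioredoxin-like Txnl1 by 0.98 ± 0.12 on OP9-DLL1. Zfand5, a zinc finger protein that activates the proteasome, was lower in cMoPs, with a log2 fold change of -1.30 ± 0.15 on OP9.

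In the ubiquitin list, which holds ubiquitin genes and the enzymes that charge it, 2 of 6 were higher and 2 lower in cMoPs on OP9-DLL1, and 3 higher and 0 lower on OP9. These calls come to 66.7% and 50% of the list, beside 57.4% and 56.5% of all tested genes. Rps27a, a ubiquitin fused to a ribosomal protein, differed by 0.65 ± 0.13 on OP9-DLL1 and 0.73 ± 0.13 on OP9. Among 10 shuttle factors and partners of the segregase Vcp, 4 were higher and 1 lower on OP9-DLL1, and 4 higher and 2 lower on OP9. That is 50% and 60% of these 10, beside the same 57.4% and 56.5% of all tested genes. Ddi2, the protease that activates Nfe2l1, was lower in cMoPs, with log2 fold changes of -0.88 ± 0.12 on OP9-DLL1 and -0.53 ± 0.12 on OP9. The shuttle Ubqln4 was higher by 1.11 ± 0.19 and 0.80 ± 0.19 on OP9-DLL1 and OP9.

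Of 9 transcription factors and processing enzymes known to act on proteasome genes, 1 was higher and 1 lower in cMoPs on each stroma. The calls make up 22.2% of that list on each stroma, below the 57.4% and 56.5% of all tested genes. Nfe2l1, the factor that raises proteasome genes when proteasomes fail, stood at 18.5 and 18.0 CPM in cMoPs on OP9-DLL1, 21.3 and 20.7 in cMoPs on OP9, 21.3 and 16.4 in monocytes on OP9-DLL1, and 15.6 and 20.1 in monocytes on OP9, and it is named after its values were seen. Nfe2l2, its relative in the antioxidant response, stood at 150.4 and 133 CPM in cMoPs on OP9-DLL1, 159 and 149 in cMoPs on OP9, 373 and 302 in monocytes on OP9-DLL1, and 294 and 268 in monocytes on OP9. The groups of Nfe2l1 overlapped on OP9-DLL1, whereas those of Nfe2l2 did not overlap on either stroma. The log2 fold change of Nfe2l2, cMoP over monocyte, was -1.25 ± 0.13 on OP9-DLL1 (limma-trend adjusted p = 5.2e-05) and -0.87 ± 0.13 on OP9 (adjusted p = 0.000529). The higher genes were the NF-Y subunits Nfyb on OP9-DLL1 (0.56 ± 0.16) and Nfyc on OP9 (1.22 ± 0.34). Nfyb lost its call without cMoP OP9-DLL1 replicate 1 or either monocyte library (adjusted p up to 0.113), and Nfyc without either cMoP OP9 library or monocyte OP9 replicate 1 (up to 0.0741).

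In the list of interferon signalling and class I peptide loading, most genes that passed ran opposite to Psmb8 and Psmb9 between the cell types. Of its 14 genes, 2 were higher and 10 lower in cMoPs on OP9-DLL1, with a median log2 fold change of -0.89. On OP9, 2 were higher and 8 lower, with a median of -0.43. In either direction 85.7% and 71.4% of the 14 passed, beside 57.4% and 56.5% of all tested genes. The lowest p-values belonged to the interferon transducers Irf9 (-1.64 ± 0.12 on OP9-DLL1 and -1.61 ± 0.12 on OP9) and Stat2 (-2.34 ± 0.20 and -2.16 ± 0.20) and the interferon gamma receptor Ifngr1 (-1.84 ± 0.14 and -1.83 ± 0.14), with limma-trend adjusted p at most 2.53e-05. The 2 higher genes on each stroma were Tap2, which forms the peptide transporter with Tap1, and Erap1, a peptide-trimming enzyme. On OP9-DLL1 Tap1 also lay above 0 (0.36 ± 0.18) without passing. Tap2 lost its call on OP9-DLL1 without either cMoP library or monocyte replicate 1 (adjusted p up to 0.269). Erap1 lost its call on OP9-DLL1 without replicate 1 of either cell type (up to 0.0783), and on OP9 without either cMoP library or monocyte replicate 1 (up to 0.184).

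Between the stromas, 3 of the 14 rose in monocytes on OP9-DLL1, beside Psmb9, and no gene of the other 4 lists passed. Those 3 are 21.4% of the list, where 3.36% of all tested genes were higher and 3.03% lower. Irf1, a factor that drives immunoproteasome genes, stood at 86.7 and 77.5 CPM on OP9-DLL1 and 30.8 and 35.1 CPM on OP9 (log2 fold change 1.32 ± 0.14, limma-trend adjusted p = 0.00122). H2-D1, a class I heavy chain, stood at 3634 and 4411 CPM on OP9-DLL1 and 899 and 1504 CPM on OP9 (1.78 ± 0.25, adjusted p = 0.00493). B2m, the light chain, stood at 2515 and 2276 CPM on OP9-DLL1 and 1648 and 1408 CPM on OP9 (0.65 ± 0.13, adjusted p = 0.0192). In each of the 3 genes both OP9-DLL1 libraries lay above both OP9 libraries. Irf1 held its call in each alternative (adjusted p up to 0.0244), H2-D1 lost it without monocyte OP9-DLL1 replicate 2 (0.0567), and B2m lost it without either OP9-DLL1 library (up to 0.13). In cMoPs no gene of the 5 lists passed between OP9-DLL1 and OP9, where 0.77% of all tested genes did. None passed in the difference of responses either, where 0.0523% of all did.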

How the data were processed

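Sequencing libraries came from sorted cells with a SMARTer Ultra Low kit, which does not mark strand, and read pairs of 150 bases, per the labels' protocols. The submitters' processing notes list build mm10, the aligner STAR 2.7.9a, the counter featureCounts 2.0.3 from Subread, the quantifier Salmon 1.5.2, bcl2fastq, and the packages limma and edgeR. The order of steps, the annotation, the model and the gene filter are not stated there. The deposited table (13430 rows, 42 repeats dropped) holds log2 CPM normalized by the authors, with 0.5 reads added to each count. It also holds the authors' fold changes, as signed linear scores and on the log2 scale, the authors' p-values, and a deposited transcript count per gene, which was not used. Whole reads were recovered from the log2 values in 100.0% of cases in every library (tolerance 0.001) and gave the depths.

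Tests used limma-trend (limma 3.58.1, R 4.3.3) on the deposited log2 values over the 13374 genes that reached 1 CPM in 2 or more libraries (14 left out), with 1 mean per group, 4 residual degrees of freedom, two-sided tests and Benjamini-Hochberg adjustment over all tested genes. Fold changes carry standard errors, and CPM values SDs over 2 libraries. Whether replicates are separate cultures or animals is not in the labels. The p-values therefore reflect nothing but the spread of these samples, possibly technical. Each replicate pair differed by more than counting noise, with a chi-square of 24.0 to 157 per degree of freedom. Gene positions and exon overlaps are from GENCODE M21 on GRCm38; promoters are from RefSeq on GRCm38.p6.

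The genes and lists were chosen with earlier results of these data known. Named in every library were Psmb5 to Psmb10 and Psme1 and Psme2. In each comparison up to 4 genes of a class that passed were named by adjusted p, or else up to 2 with the largest fold changes, and up to 3 of each partner list. Alternatives were the filter, the trend, median centring, log2(CPM + 1), voom on recovered reads, a replicate block, fitting only the groups compared, and leaving out each library.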

Additional observations from a re-analysis of the deposited data

How the results depend on the processing

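In monocytes on OP9-DLL1 against OP9, the 1 higher and 2 lower calls became 2 and 4 with the filter at 5 CPM, with log2(CPM + 1), with voom on recovered reads and with the replicate block, 1 and 6 with libraries centred on their medians, and 0 and 0 without the mean-variance trend and with only the groups compared. The cause was not tested. Leaving out 1 library gave 0 to 4 higher and 0 to 12 lower. The additional calls under the 5 CPM filter were Psmd5, Psmc1 and Psmd7. The difference of responses had 0 and 0 calls except without monocyte OP9 replicate 2 (range 0 to 10 higher and 0 to 2 lower). In cMoPs the count stayed at 0 in both directions under every alternative tried.

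For cMoPs against monocytes on OP9, leaving out 1 library gave 14 to 28 higher and 2 to 8 lower, against 19 and 4 (fewest without cMoP OP9 replicate 2, most lower without monocyte OP9 replicate 2), and 16 of the 23 calls held in every alternative. On OP9-DLL1, leaving out 1 library gave fewer calls, both among the 49 genes and over all tested genes. The median log2 fold change of the 49 genes was 0.50 to 0.52 in those fits, against 0.51 with all libraries. There was 1 lower call without the trend and 1 with centring, against 2 in the main fit. Of the 34 calls, 22 held in every alternative and 12 were lost in at least 1. Centring moved the median of all genes by 0.11 there, and the median of the 49 genes to 0.62. No gene turned its direction past the threshold in any alternative. Where a library was left out, the lone library of its group is assumed to vary like the other groups. The replicate block was fitted although the labels do not say that equal numbers mark paired samples; deviations of equal-numbered libraries correlated at 0.03 to 0.10, and among the 49 genes the block moved counts by over 1.5 times in the monocyte stroma comparison alone.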
